A study of Mus musculus with 12 samples.

Results

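The genes described here encode junction proteins of the intestinal epithelium: the claudins Cldn2, Cldn3, Cldn4, Cldn7, Cldn15 and Cldn23, the cadherins Cdh1 and Cdh17, the tight junction scaffold Tjp1, and the adhesion molecule Epcam. They were chosen by name, as a list of 10 tight junction, adherens junction and adhesion genes. No measured value was a criterion, but earlier results of these data were known when the list was made. Of the 10 genes, 8 were among the 6429 genes of the authors' deposited tables, and Cldn2 and Cldn3 were not among the genes tested there. All 10 genes had a promoter window in the authors' count files and 9 had a gene body window, Cldn3 being the exception.

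Binding of RNA polymerase II (Pol II) was measured by chromatin immunoprecipitation and sequencing (ChIP-seq) in epithelium of the duodenum of adult mice. The labels list 3 Pol II libraries each from wild-type (WT) villus, WT crypt and villus labelled Hnf4 alpha/gamma double knockout (DKO), and 1 input library per group. The DKO mice received tamoxifen at 50 mg/kg per day for 2 days and were killed 1 day after the last injection, and the WT mice, which gave both crypts and villi, received an ethanol and corn oil vehicle without tamoxifen. Epithelium was released with EDTA for 25 minutes from mutant tissue and 35 minutes from WT tissue, so genotype, tamoxifen and EDTA time cannot be told apart between the genotypes. Crypts passed through the filter that retained villi. Strain, exact age, the driver of the recombinase, the deleted part of each gene and any pooling of animals were not given in the sources used here. Nothing in the labels says whether the libraries of a group came from separate animals, so the p-values below measure the spread between libraries, which may be technical.

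Tight junctions seal the space between neighbouring epithelial cells near their apical side, and claudins are the membrane-spanning proteins that form their strands and set which ions pass between the cells. The products of Cldn2 and Cldn15 are known for forming cation channels in the intestine, while that of Cldn4 is mostly described as tightening the barrier and that of Cldn7 is also found along the lateral membrane. Below the tight junction, the adherens junction holds cells together through E-cadherin, the product of Cdh1, and its catenins. Cdh17 encodes the liver-intestine cadherin of the lateral membrane, Tjp1 encodes ZO-1, which links claudins to actin, and Epcam encodes a lateral adhesion protein that binds and stabilises the product of Cldn7.

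All values below come from the authors' deposited tables of 2 comparisons, made with DESeq2, and from a further one derived from them. Each gene has an average signal (counts divided by size factors, averaged over libraries), called mean signal below, and a log2 fold change with its standard error (SE) and an adjusted p. The tables do not state where in a gene reads were counted, and values per library were not analysed here. A gene is called when its adjusted p is under 0.05, with the adjustment made over all 6429 genes. Positive values mean more signal in the group named first. The targeted genes were read first: in the authors' deposited table of WT over labelled-DKO villus, Hnf4a had a log2 fold change of -0.54 ± 0.14 (SE, adjusted p 4.84e-04) and Hnf4g had -1.45 ± 0.22 (adjusted p 7.81e-10), so both had more signal in the libraries labelled DKO. Since the deleted part of neither gene is given, this signal checks no label, and every direction between genotypes rests on the table's name. Of 12 enterocyte markers 11 were tested, and all 11 were called higher in WT villus in both of the authors' deposited tables, with median log2 fold changes of 1.55 over crypt and 2.44 over labelled-DKO villus. Of 11 crypt markers 2 were tested, and Axin2 and Pcna were both higher in crypt. Between genotypes, Pcna was higher in labelled-DKO villus at -0.62 ± 0.20 (adjusted p 0.00568) and Axin2 had -0.38 ± 0.17 (adjusted p 0.0531) in the authors' deposited table. Among 12 secretory cell markers 6 were tested, with 3 higher in villus and 2 higher in crypt, and with 2 called between genotypes, both lower in WT villus. The 1 immune marker called of 3 tested (of 9 listed) was Cd74, at 0.72 ± 0.24 in villus over crypt and 1.33 ± 0.24 in WT over labelled-DKO villus in the authors' deposited tables. None of the 10 mesenchyme and endothelium markers was among the genes tested. The part of cell type makeup in the results below was not tested. In tissue of mixed cell types, fewer cells of a type and less Pol II per cell cannot be told apart.

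Promoter sequences are shown for 3 of the claudins called higher in WT villus in both deposited comparisons. Those of Epcam and Tjp1, which were not called higher in both, are also shown. Each is the stretch of 250 bases upstream of the gene's start, 5′ to 3′ on the gene's strand, from the RefSeq promoter table of build GRCm38.p6, which held 7 of the 10 genes. Capitals mark a match to one of 5 short motifs searched on both strands over these 250 bases and the next 50.
Cldn15 (chr5:136967619-136967868, + strand): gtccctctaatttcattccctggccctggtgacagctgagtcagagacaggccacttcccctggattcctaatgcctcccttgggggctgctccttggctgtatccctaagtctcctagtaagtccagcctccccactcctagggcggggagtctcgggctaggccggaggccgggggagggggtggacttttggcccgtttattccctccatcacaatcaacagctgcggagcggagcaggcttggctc
Cldn7, downstream start (chr11:69965171-69965420, + strand): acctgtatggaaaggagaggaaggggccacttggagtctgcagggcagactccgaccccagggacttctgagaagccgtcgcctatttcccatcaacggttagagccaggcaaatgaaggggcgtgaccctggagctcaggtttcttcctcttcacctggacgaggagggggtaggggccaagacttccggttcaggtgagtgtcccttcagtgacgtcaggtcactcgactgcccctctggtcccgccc
Cldn4 (chr5:134946935-134947184, - strand): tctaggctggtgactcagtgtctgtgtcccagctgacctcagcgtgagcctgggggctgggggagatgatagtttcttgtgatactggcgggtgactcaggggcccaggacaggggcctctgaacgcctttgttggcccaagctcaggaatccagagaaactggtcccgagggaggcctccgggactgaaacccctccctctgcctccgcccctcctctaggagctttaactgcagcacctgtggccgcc
Epcam (chr17:87635729-87635978, + strand): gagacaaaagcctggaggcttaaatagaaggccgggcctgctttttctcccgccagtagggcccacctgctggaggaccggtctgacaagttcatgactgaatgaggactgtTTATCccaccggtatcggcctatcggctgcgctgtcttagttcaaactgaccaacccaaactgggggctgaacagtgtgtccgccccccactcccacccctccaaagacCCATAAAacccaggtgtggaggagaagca
Tjp1 (chr7:65371245-65371494, - strand): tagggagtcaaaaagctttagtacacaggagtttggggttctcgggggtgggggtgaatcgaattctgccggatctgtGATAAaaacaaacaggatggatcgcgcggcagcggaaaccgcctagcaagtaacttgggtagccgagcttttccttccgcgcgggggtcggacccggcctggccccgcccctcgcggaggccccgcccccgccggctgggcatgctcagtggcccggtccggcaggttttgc

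The motif of the TATA box was searched as TATAAA. The letters for HNF4 were CAAAGTCCA and those for HNF1 were GTTAATNA, where N is any base. The letters for the intestinal factor CDX2 were TTTATNG, which can overlap those of the TATA box, and the letters for GATA factors were GATAA. None of the 5 was found in the promoters of Cldn3, Cldn4 and Cldn15 or in either promoter of Cldn7, and that of Cldn2 held the TATA letters 35 bases upstream of the start. The Epcam promoter held a match to the CDX2 letters starting 29 bases upstream of the start and one to the GATA letters at 138 bases upstream, and that of Tjp1 held the GATA letters at 172 bases upstream. Of 32851 mouse promoters of the same length, 13.6% held the TATA letters, 0.475% the HNF4 letters, 10.9% the CDX2 letters, 25.4% the GATA letters and 2.54% the HNF1 letters. The sequence upstream of Tjp1 had 63.2% G and C with 22 CpG dinucleotides, against 60.8% and 7 for Cldn15, 62.0% and 7 for Cldn4, and medians of 52.4% and 6 over all promoters. The HNF4 letters are rare in windows this short, and no match says only that these letters are not there.

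From crypt to villus, Pol II signal rose at all 4 tested claudins of the list, at Epcam and at Cdh17, while Cdh1 and Tjp1 did not pass the test. In the authors' deposited table for villus over crypt, 6 of the 8 genes were called, against 37.4% of all genes. All 6 were higher in villus, a direction held by 18.6% of all genes. None was higher in crypt, against 18.8% of all genes, and this count was also 0 at an unadjusted p under 0.05 in the authors' deposited DESeq2 results. The median of the 8 log2 fold changes was 0.60, against -0.04 over all genes.

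Cldn4 had the largest rise of the list in the authors' deposited table, with a log2 fold change of 1.17 ± 0.23 (SE, adjusted p 3.48e-06), a 2.24-fold higher signal in WT villus. Its mean signal of 85.6 was the lowest of the 8 genes and its SE the largest. Cldn7 followed in the authors' deposited table at 1.00 ± 0.13 (adjusted p 6.7e-13), a 2.00-fold difference estimated more tightly. The 95% interval of Cldn4, from 0.72 to 1.61, contained that of Cldn7, from 0.74 to 1.25, so the order of these 2 genes was not resolved. Cldn15, which encodes a channel-forming claudin, rose by less in the authors' deposited table, at 0.64 ± 0.14 (adjusted p 6.18e-05) or 1.56-fold. The smallest rise of a claudin in the authors' deposited table was that of Cldn23, at 0.56 ± 0.18 (adjusted p 0.00748), and Cldn23 is a less studied family member of differentiated epithelium. Its interval of 0.20 to 0.91 overlapped those of the other 3 claudins.

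Epcam, whose product binds that of Cldn7, rose with the claudins in the authors' deposited table, at 0.79 ± 0.18 (adjusted p 5.63e-05) or 1.73-fold. The 2 cadherins were less alike. Cdh17 rose by 0.52 ± 0.16 (adjusted p 0.00566) in the authors' deposited table, a 1.43-fold difference. For Cdh1 the authors' deposited table gave 0.15 ± 0.19 (adjusted p 0.570), with an interval of -0.22 to 0.52, which leaves room for a rise as large as that estimated for Cdh17. Tjp1 had -0.10 ± 0.21 (adjusted p 0.746, interval -0.52 to 0.32) in the authors' deposited table. Against a null of changes up to 0.25 on the log2 scale, 3 of the 6 calls remained, those of Cldn4, Cldn7 and Epcam, against 11% of all genes called, so the size of the smaller rises is not well bounded from below.

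**Figure D1:**
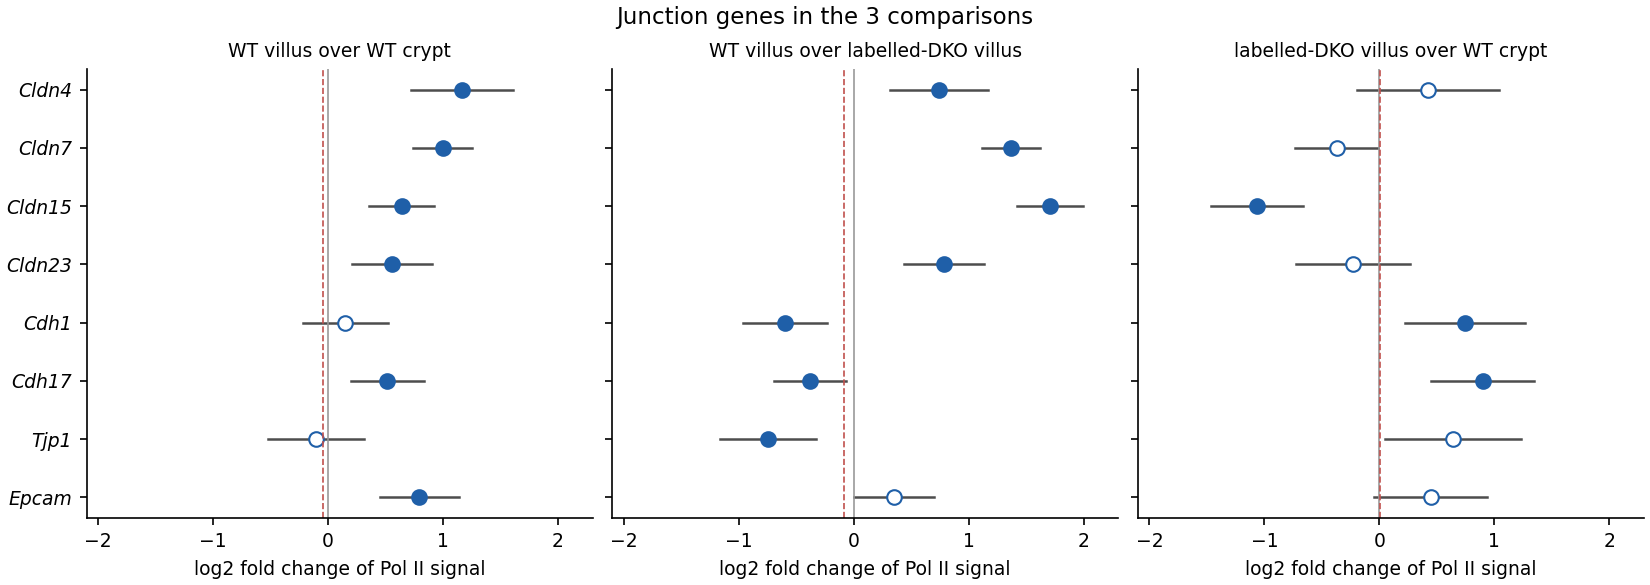
Log2 fold change of Pol II signal (x axis) for each of the 8 genes in the 3 comparisons, with 95% intervals as lines. Filled circles are called genes, open circles are not called, the grey line is 0 and the dashed red line is the median of all 6429 genes. The right panel is derived and uses the largest possible SE. The 4 claudins lie right of 0 in both left panels, while Cdh1, Cdh17 and Tjp1 lie left of 0 in the middle panel.

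Between the genotypes the list split in 2 directions. All 4 tested claudins had less signal in villus labelled DKO than in WT villus, while both cadherins and Tjp1 had more, and Epcam did not pass the test. In the authors' deposited table of WT over labelled-DKO villus, 7 of the 8 genes were called, against 51.9% of all genes. Of the 8 genes 4 were higher in WT villus, against 22.4% of all genes. The 3 that were lower in WT villus are 37.5% of the 8, near the 29.5% of all genes. The median of the 8 log2 fold changes was 0.55, against -0.08 over all genes. After centring on the median of all genes the split among the 8 was 5 against 2, because Epcam passed at 0.43 (adjusted p 0.0320) and Cdh17 did not at -0.30 (adjusted p 0.1102). The same centring changed the shares over all genes to 26.6% higher and 22.1% lower in WT villus. The 2 deposited comparisons share the WT villus libraries, so a chance high or low value there would move both in the same direction.

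Cldn15 had the largest difference of the list in the authors' deposited table, at 1.71 ± 0.15 (SE, adjusted p 7.42e-30), a 3.26-fold higher signal in WT villus and above 97.9% of all genes. Cldn7 had 1.37 ± 0.13 (adjusted p 2.39e-24) in the authors' deposited table, or 2.58-fold. The intervals of these 2 genes, 1.42 to 1.99 and 1.11 to 1.62, overlapped. Both passed the test against log2 changes of up to 0.5, as did 9.91% of all genes, and the other 6 genes of the list did not. Cldn23 and Cldn4 had smaller differences in the authors' deposited table, at 0.79 ± 0.18 (adjusted p 4.45e-05) and 0.74 ± 0.22 (adjusted p 0.00207). The interval of Cldn4, 0.31 to 1.17, lay below that of Cldn15 throughout.

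Tjp1, which encodes the scaffold that claudins bind, had the largest difference in the other direction, at -0.74 ± 0.21 (adjusted p 0.00152) in the authors' deposited table, or 1.67-fold higher in labelled-DKO villus. Cdh1 followed in the authors' deposited table at -0.60 ± 0.19 (adjusted p 0.00393), a 1.51-fold difference. Cdh17 was nearest to the threshold of the called genes in the authors' deposited table, at -0.38 ± 0.16 (adjusted p 0.0357) or 1.30-fold. In the Wald test against changes up to 0.25 none of these 3 passed, with adjusted p-values of 0.0889, 0.227 and 0.953. Among the claudins, Cldn4 did not pass this test either (adjusted p 0.102). Cldn7, Cldn15 and Cldn23 passed it, as did 21.1% of all genes. The intervals of Tjp1 (-1.16 to -0.32), Cdh1 (-0.96 to -0.23) and Cdh17 (-0.70 to -0.07) overlapped one another and none reached 0. Epcam had 0.35 ± 0.18 (adjusted p 0.0832) in the authors' deposited table, with an interval of 0.00448 to 0.69.

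The labelled-DKO villi were then set against WT crypt, to place each gene between the 2 WT groups. For this, 1 deposited log2 fold change was subtracted from the other, with the SE at the largest value it can have for independent libraries and p-values adjusted over all 6429 genes. It called 3 of the 8 genes, against 13.6% of all genes. Cdh17 and Cdh1 were higher in labelled-DKO villus, a direction held by 6.41% of all genes, and Cldn15 was higher in crypt, as were 7.19% of all genes. Cldn15 stood at -1.07 ± 0.20 (adjusted p 8.17e-06), so its signal in labelled-DKO villus lay below that of crypt by 2.09-fold. Cdh17 stood at 0.90 ± 0.23 (adjusted p 0.00144) and Cdh1 at 0.75 ± 0.26 (adjusted p 0.0383), which are 1.86-fold and 1.68-fold higher than crypt.

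The other 5 genes did not pass with this SE. Tjp1 had 0.64 ± 0.30 (adjusted p 0.156) and Epcam 0.45 ± 0.25 (adjusted p 0.263), both on the side of labelled-DKO villus. Cldn4 had 0.42 ± 0.32 (adjusted p 0.455), Cldn23 had -0.23 ± 0.25 (adjusted p 0.667) and Cldn7 had -0.37 ± 0.18 (adjusted p 0.184). With the mean of the 2 deposited SEs in place of the largest one, 6 of the 8 were called, against 29.9% of all genes with that SE, the added ones being Cldn7 (adjusted p 0.0181), Tjp1 (0.0125) and Epcam (0.0412). Cldn4 and Cldn23 were not told apart from crypt under either SE, and their intervals with the largest SE, -0.20 to 1.04 and -0.72 to 0.26, leave differences of either direction possible.

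The levels of each group can be rebuilt from the mean signal and the 2 fold changes if the groups had equal numbers of libraries and the fold changes were not shrunken. These levels carry no error of their own and serve to show the order of the groups. For Cldn15 the rebuilt signal was 301 size-factor-normalised counts in WT crypt, 470 in WT villus and 144 in labelled-DKO villus. The rebuilt signal of Cldn7 was 115, 229 and 88.8 in the same order, and that of Cldn23 was 100.1, 147 and 85.3. In these 3 claudins WT villus was highest and labelled-DKO villus lowest, although the lower pair was told apart for Cldn15 alone with the largest SE. Cldn4 differed in the lower pair, with 56.0 in crypt, 126 in WT villus and 75.1 in labelled-DKO villus. Epcam had that same order with 325, 564 and 443. With the largest SE the lower pair was not told apart for either gene. For Epcam, WT villus and labelled-DKO villus were not told apart in the authors' deposited table either (adjusted p 0.0832). Cdh17 went from 780.0 in crypt to 1116 in WT villus and 1454 in labelled-DKO villus. Cdh1 had 795 in crypt and 882 in WT villus, a pair not told apart by the test, and 1333 in labelled-DKO villus. Tjp1 had 567, 528 and 883, again with the WT pair not told apart. Levels are not comparable between genes here, since the counted length is not known.

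**Figure D2:**
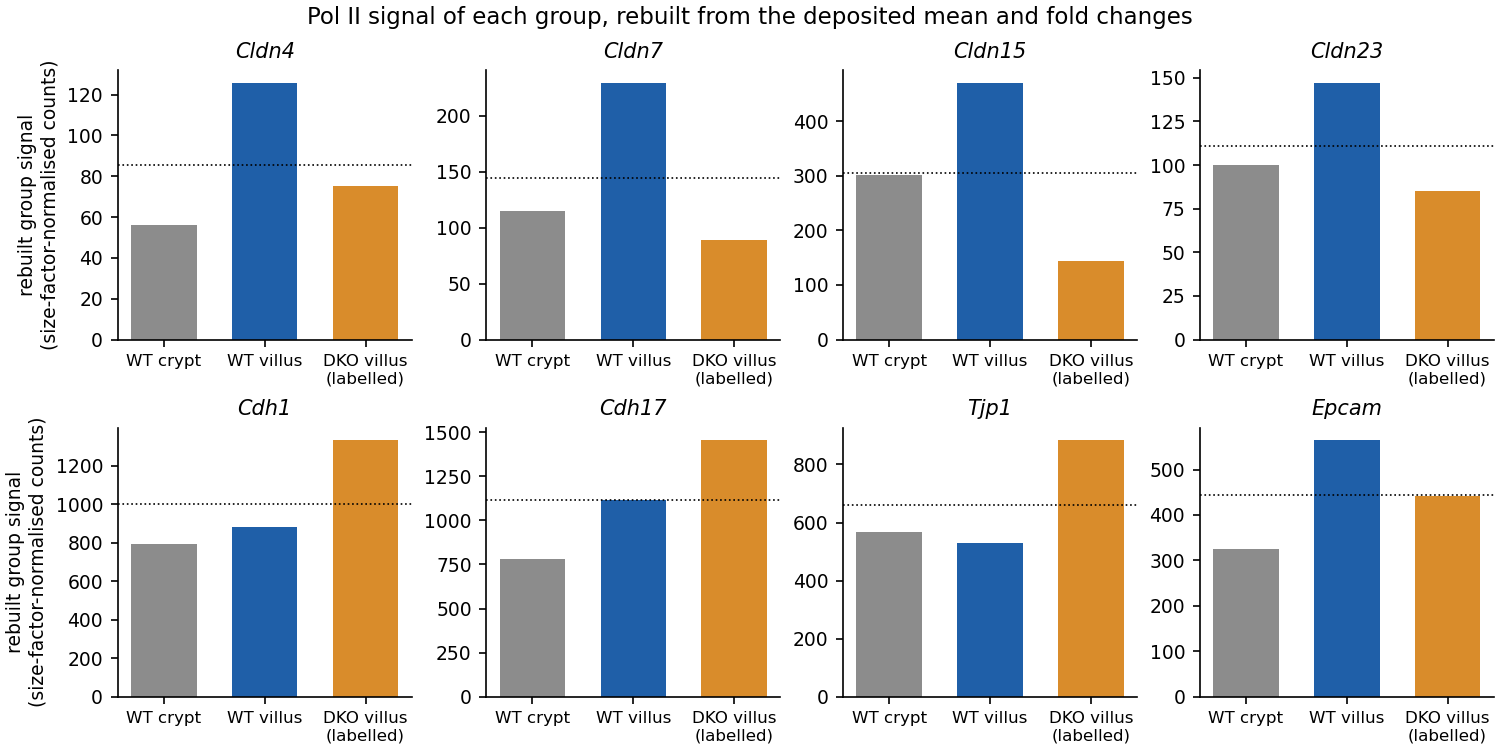
Rebuilt Pol II signal of WT crypt (grey), WT villus (blue) and labelled-DKO villus (orange) for each of the 8 genes, in size-factor-normalised counts with a separate axis from 0 per gene and no error bars. The dotted line is the deposited mean over all libraries. WT villus is the highest bar for the 4 claudins and Epcam, and labelled-DKO villus for Cdh1, Cdh17 and Tjp1. Epcam was not called between the genotypes.

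The families also differ in gene length. The 4 tested claudins are short, with windows spanning 2.66 kb (Cldn4), 2.70 kb (Cldn23), 2.71 kb (Cldn7) and 7.58 kb (Cldn15). Epcam spans 14.7 kb, and Cdh17, Cdh1 and Tjp1 span 59.3, 66.5 and 75.9 kb. Mean signal moved with span: it was 85.6 to 305 for the claudins, 444 for Epcam, and 1116, 1003 and 659 for the long genes. Over all genes, the shares called in WT over labelled-DKO villus also differed between span classes. Of 2789 genes up to 10 kb, 19.9% were higher and 21.4% lower in WT villus. Of 2790 genes from 10 to 50 kb, 23.8% and 34.3% were, and of 534 genes from 50 to 100 kb, 27.0% and 41.6%. Of 281 genes over 100 kb, 24.2% and 40.2% were, so the shares did not rise further there. The median log2 fold changes of these classes were -0.05, -0.10, -0.12 and -0.10. The part of span in the split between families was not tested.

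**Figure D3:**
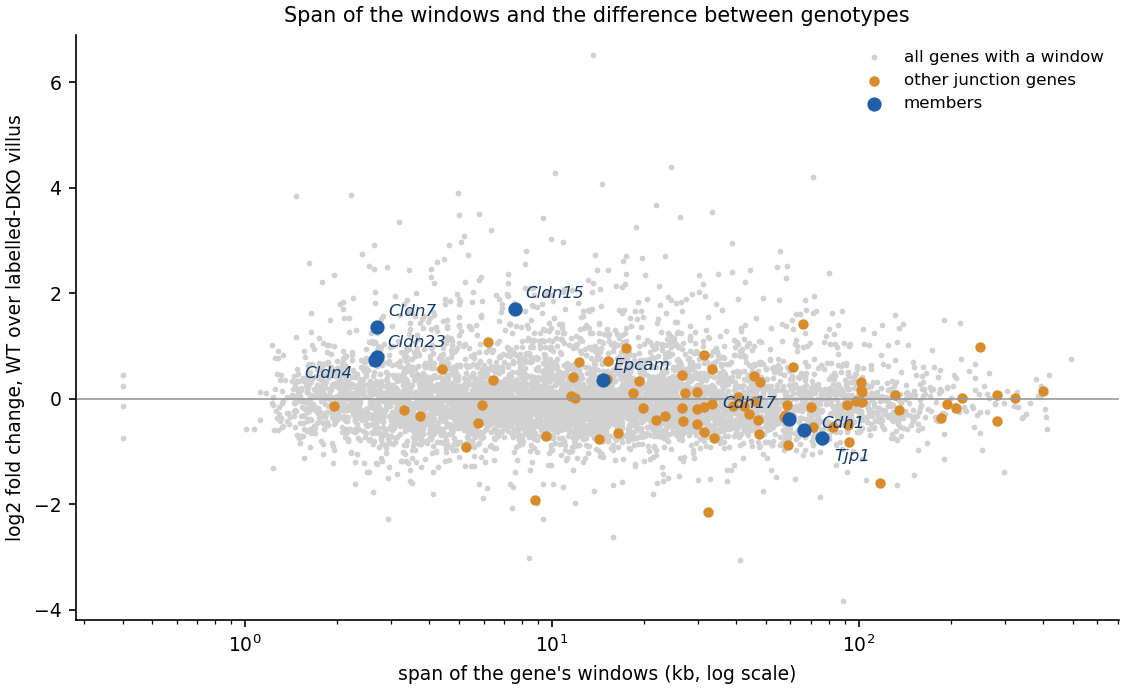
Span of each gene's windows (kb, log scale) against the log2 difference between WT villus and villus labelled DKO, for the 6394 table genes with a window (grey), the other junction genes (orange) and the 8 named genes (blue). The claudins, all under 10 kb, lie above 0, and the 3 genes from 50 to 100 kb lie below it.

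In the coordinates of the authors' count files, for which the submitters' processing notes name build mm9, the windows of Cldn15 ran on chromosome 5 from 137443639 to 137451215, on the + strand. Those of Cldn4 ran on the - strand of chromosome 5 from 135420493 to 135423154, with Cldn3 38830 bp away on the + strand. Cldn7 had 2 transcripts on chromosome 11, with windows from 69778181 to 69780888, and Tjp1 had 2 transcripts that shared their windows on chromosome 7 from 72440551 to 72516480. The windows of Cldn23 lay on chromosome 8 from 36887263 to 36889963, those of Cdh1 on chromosome 8 from 109127150 to 109193647, those of Cdh17 on chromosome 4 from 11685204 to 11744552, and those of Epcam on chromosome 17 from 88035219 to 88049967. Cldn2, not tested, lay on chromosome X from 136335247 to 136345427. Each promoter window was 402 bp long, and the promoter window was the sole one of Cldn3.

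Among windows matched to a RefSeq gene, none of another gene overlapped those of the 10 genes, but some neighbours were close. Windows without such a match were not searched. The nearest to Cldn7 was Elp5, an Elongator subunit gene on the opposite strand, 339 bp away. Elp5 was higher in villus than crypt at 0.48 ± 0.15 (adjusted p 0.00514) and had 0.31 ± 0.15 (adjusted p 0.0681) between genotypes in the authors' deposited tables, smaller than Cldn7 in both. Cldn15 lay 2035 bp from Fis1 and 6349 bp from Znhit1. Neither was called in the authors' deposited tables, with 0.44 ± 0.20 and -0.05 ± 0.16 in villus over crypt and 0.06 ± 0.20 and 0.34 ± 0.16 in WT over labelled-DKO villus. Next to Cldn4, at 2486 bp, Mettl27 had -0.04 ± 0.19 and 0.14 ± 0.19 in the authors' deposited tables and was called in neither.

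By distance over the 2 deposited log2 fold changes, among genes with a mean signal within 2 times its own, the genes nearest to Cldn15 were Pkig and Cgref1. Pkig had 0.67 ± 0.13 and 1.69 ± 0.13 in the authors' deposited tables, and Cgref1 had 0.64 ± 0.15 and 1.67 ± 0.16. Nearest to Cldn4 were Emilin3, with 1.08 ± 0.18 and 0.79 ± 0.17 in the authors' deposited tables, and Rassf7, with 1.17 ± 0.21 and 0.61 ± 0.20. The likeness rests on 2 values per gene that share the WT villus libraries.

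The other genes of the epithelial junctions were taken from lists of 152 names, of which 78 were tested. From crypt to villus, 21 were higher in villus in the authors' deposited table, 6 were higher in crypt and 51 were not called, with a median log2 fold change of 0.11. The 21 are 26.9% of the 78, beside 18.6% of all genes, and the 6 are 7.69%, beside 18.8%. Between genotypes 16 were higher in WT villus, 22 were higher in labelled-DKO villus and 40 were not called in the authors' deposited table, with a median of -0.12, beside -0.08 over all genes. These calls are 20.5% and 28.2% of the 78, near the 22.4% and 29.5% of all genes. In the derived comparison 14 were higher in labelled-DKO villus than in crypt and 3 were lower, with a median of 0.24, against 0.0026 over all genes. The 14 are 17.9% of the 78 and the 3 are 3.85%, beside 6.41% and 7.19% of all genes. The lists below are described by counts, to be read beside these shares over all genes, and no list was tested against other genes.

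Of the other claudins and claudin-like genes 2 of 21 were tested, and 1 was called: Tmem235, a claudin-like membrane protein gene, had 0.57 ± 0.24 (adjusted p 0.0336) in the authors' deposited table of WT over labelled-DKO villus, at the low mean signal of 41.9. Its direction there was that of the 4 claudins above. In villus over crypt Tmem235 was not called, at -0.11 ± 0.23 (adjusted p 0.750) in the authors' deposited table. The other tested gene, Cldnd1, was called in neither of the authors' deposited tables. It had -0.09 ± 0.15 (adjusted p 0.683) in villus over crypt and -0.12 ± 0.15 (adjusted p 0.509) in WT over labelled-DKO villus. Cldnd1 was named after its values were seen. Of 34 tight junction strand and scaffold genes 21 were tested. The authors' deposited tables had 8 higher in villus and 2 in crypt, and 6 higher and 4 lower in WT villus between genotypes, and the medians were 0.18 and -0.12. Marveld2, which encodes the protein of tricellular contacts, was higher in crypt at -0.47 ± 0.10 (adjusted p 3.1e-05) and higher in labelled-DKO villus at -0.39 ± 0.10 (adjusted p 2.65e-04) in the authors' deposited tables. Tjp3, a scaffold gene named here after its values were seen, was higher in WT villus at 0.33 ± 0.11 (adjusted p 0.00989) in the authors' deposited table.

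Of 27 adherens junction genes 16 were tested, and the authors' deposited tables had 2 higher in villus and 1 in crypt, and 1 higher and 5 lower in WT than in labelled-DKO villus, with medians of 0.08 and -0.18. The 5 are 31.2% of the 16, near the 29.5% of all genes called in that direction. Ctnnd1, which encodes the delta-catenin that holds E-cadherin at the surface, had -0.88 ± 0.20 (adjusted p 7.34e-05) in the authors' deposited table of WT over labelled-DKO villus. Jup, which encodes the catenin shared with desmosomes, had 0.41 ± 0.13 (adjusted p 0.00811) in villus over crypt and -0.47 ± 0.13 (adjusted p 0.00102) between genotypes in the authors' deposited tables. Both catenin genes were also higher in labelled-DKO villus than in crypt, at 0.96 ± 0.29 (adjusted p 0.0105) and 0.88 ± 0.19 (adjusted p 7.01e-05). The genes of the other tested catenins did not pass between genotypes: the authors' deposited table gave -0.42 ± 0.22 (adjusted p 0.105) for Ctnnb1 and -0.21 ± 0.15 (adjusted p 0.264) for Ctnna1, which were named after their values were seen. Ctnnbip1, which encodes an inhibitor of beta-catenin and TCF interaction, was the 1 gene of the list higher in WT villus, at 0.32 ± 0.12 (adjusted p 0.0154) in the authors' deposited table.

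The remaining junctions were measured through few genes. Of 13 desmosome genes 6 were tested, and Pkp3, a plakophilin gene, was higher in villus at 0.48 ± 0.15 (adjusted p 0.00540) while Dsp, the desmoplakin gene, was higher in labelled-DKO villus at -0.40 ± 0.07 (adjusted p 1.07e-07) in the authors' deposited tables. The medians of the list were 0.07 and 0.03. Of 9 gap junction genes 3 were tested, with medians of -0.31 and 0.03, and Gjb1, which encodes a connexin, had one of the largest differences of all junction genes, at -1.92 ± 0.32 (adjusted p 2.5e-08) between genotypes in the authors' deposited table. Of 12 hemidesmosome and basement membrane genes 7 were tested, with 3 higher in villus and 0 in crypt (also 0 at an unadjusted p under 0.05 in the DESeq2 results), and with 3 higher and 1 lower in WT than in labelled-DKO villus in the authors' deposited tables (medians 0.32 and 0.15). Plec, the gene of the cytolinker plectin, had 1.30 ± 0.20 (adjusted p 6.72e-10) in villus over crypt, and Lama3, a laminin chain gene, had 0.97 ± 0.11 (adjusted p 5.63e-17) in WT over labelled-DKO villus in the authors' deposited tables.

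Of 10 listed membrane partners and proteases around Epcam and Cldn7, 7 were tested, with 2 higher in villus and 1 in crypt, and 1 higher and 3 lower in WT than in labelled-DKO villus in the authors' deposited tables, and medians of 0.23 and -0.28. Tspan8, which encodes a tetraspanin of membrane microdomains, had the lowest value of all junction genes in WT over labelled-DKO villus, at -2.14 ± 0.28 (adjusted p 1.32e-13) in the authors' deposited table. Prss8, the prostasin gene, was at the edge of the threshold toward crypt with -0.46 ± 0.19 (adjusted p 0.04996), and had -0.92 ± 0.19 (adjusted p 6.45e-06) between genotypes in the authors' deposited tables. Of 26 actomyosin and regulator genes 16 were tested, with 5 higher in villus and 2 in crypt, and 4 higher and 7 lower in WT than in labelled-DKO villus in the authors' deposited tables, and medians of 0.18 and -0.40. Klf4, a transcription factor gene of differentiated epithelium, had 1.79 ± 0.23 (adjusted p 3.51e-13) and 1.07 ± 0.23 (adjusted p 1.32e-05) in the authors' deposited tables. Ezr, which encodes the membrane and actin linker ezrin, had 1.54 ± 0.26 (adjusted p 2.65e-08) in villus over crypt and did not pass between genotypes, at 0.44 ± 0.25 (adjusted p 0.141), in the authors' deposited tables. Myh14, a non-muscle myosin heavy chain gene, had 0.73 ± 0.14 (adjusted p 1.09e-06) and 1.42 ± 0.14 (adjusted p 1.39e-23) in the authors' deposited tables. In the other direction, Sgk1, a kinase gene of sodium transport, had -1.61 ± 0.48 (adjusted p 0.00213) between genotypes, and Wnk4, a kinase gene known for regulating claudins and transporters, had -0.47 ± 0.09 (adjusted p 2.25e-06) in villus over crypt and -0.66 ± 0.09 (adjusted p 9.15e-13) between genotypes, in the authors' deposited tables.

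**Figure D4:**
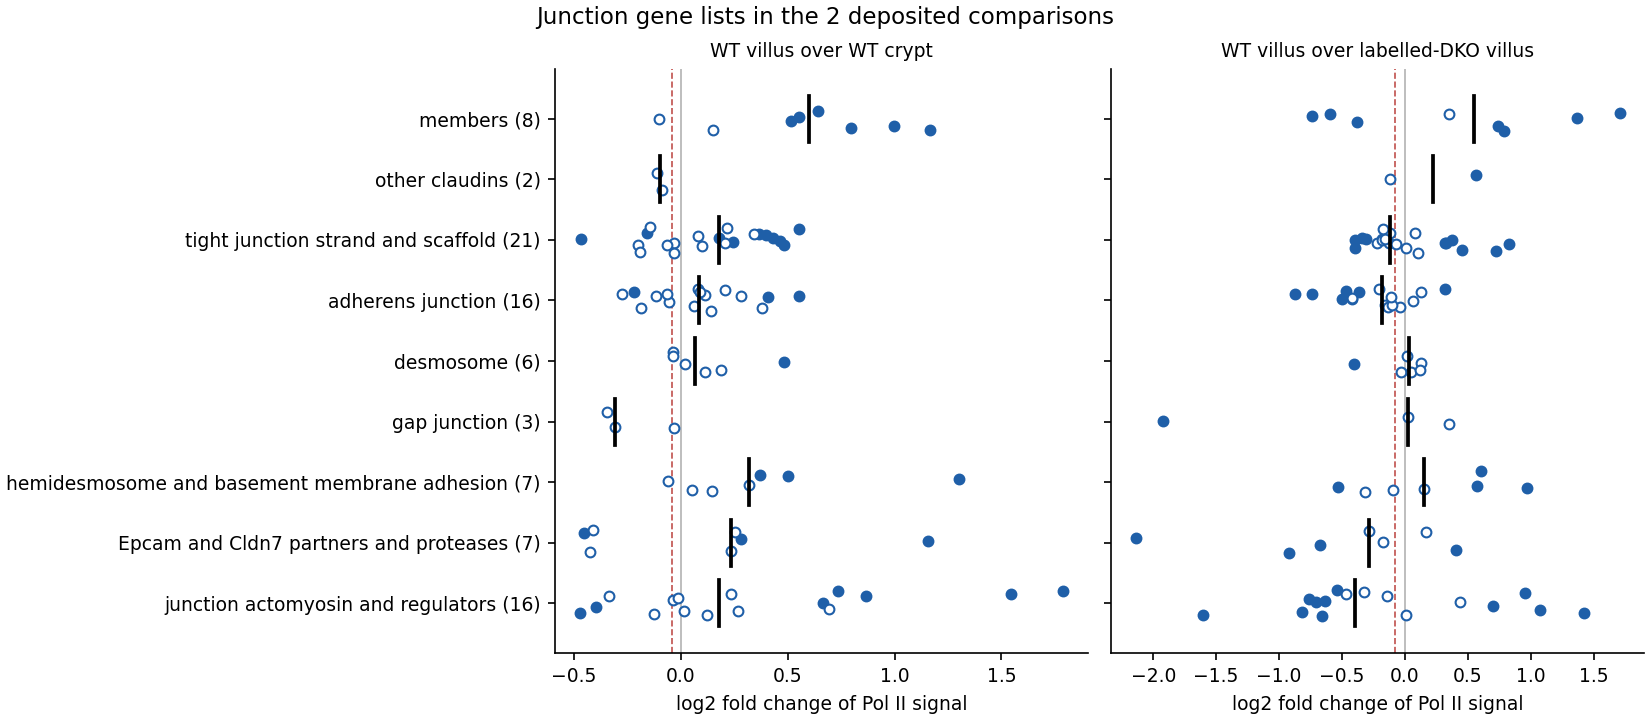
Log2 fold change of Pol II signal (x axis) of each tested gene in the list of 8 and in 8 other junction lists, with the number tested in brackets. Filled circles are called genes, open circles are not called, the black bar is the list's median, and the dashed red line is the median of all genes. In the right panel the 8 named genes fall in 2 groups, from 0.35 upward and from -0.38 downward.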

How the data were processed

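Pol II ChIP-seq reads of 9 libraries were processed by the authors. The submitters' processing notes name FastQC 0.11.3, Bowtie2 2.2.6, SAMtools 0.1.19, Picard, deepTools 2.4.2, featureCounts of Subread, DESeq2 1.36.0 and build mm9. Per the file headers, counts were made with featureCounts 2.0.3 on read pairs of mapping quality 30 or more, with duplicates ignored, each pair given to every window it overlapped and no strand option. No line names the 18 columns of counts (9 in each of 2 tables), so they were not used, and the planned tests on counts were not run. Window positions were used, and transcripts were named through RefSeq of GRCm38.p6, which matched 42877 of 44308 promoter and 40091 of 41048 gene body windows. The mean signal in the deposited tables is counts divided by size factors, averaged over libraries. The authors deposited a log2 fold change, its SE, a score (the Wald statistic) and p-values before and after adjustment for each gene, and do not state how genes were filtered. The deposited scores equal the fold change over its SE, and the adjusted p-values equal the Benjamini-Hochberg adjustment, to within 3.76e-07. Intervals are 95% normal intervals from the SE. The derived comparison and the limits of 0.25 and 0.5 used Wald tests in Python 3.11.15 with scipy 1.17.1, tested on simulated data. Further settings were an adjusted p under 0.01, log2 limits of 0.5 and 1, centring, a mean signal of at least 100, and genes without overlapping windows. The genes and lists were chosen with earlier results of these data known. Beyond the 10 genes, the text names the 3 called junction genes with the largest change in each direction and deposited comparison. It also names called claudins, catenins and desmosome genes, and the 2 genes nearest to the member with the largest change. Some genes next to the 10 by window position are named too. Cldnd1, Tjp3, Ctnnb1 and Ctnna1 fall outside these rules and were named after their values were seen.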

Additional observations from a re-analysis of the deposited data

How the results depend on the processing

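Among the recomputed values of the 8 genes, 155 stayed on their side of the threshold, 38 no longer passed and 4 newly passed. Centring is the 1 setting that changes a fold change itself, and it turned no direction among them. For villus over crypt, 33 of 86 junction genes, a share near the 37.4% of all genes, and 6 of 8 named genes were called. These counts were 16 junction genes with a limit of 0.5, 5 and 1 with a limit of 1, 10 and 3 against changes up to 0.25, and 5 and 1 against changes up to 0.5. For WT over labelled-DKO villus, 45 and 7 were called, the 45 again at a share near the 51.9% of all genes. These counts became 7 and 2 with a limit of 1, 21 and 3 against 0.25, and 6 and 2 against 0.5. For labelled-DKO villus over crypt, 20 and 3 were called, beside 13.6% of all genes. There the counts were 12 junction genes at an adjusted p under 0.01, 5 and 1 with a limit of 1, 3 and 1 against 0.25, 0 and 0 against 0.5 by the Wald test (5 and 1 at an unadjusted p under 0.05), and 46 and 6 with the mean SE. Stricter limits let fewer genes pass by construction. Against changes up to 0.25, 11% of all genes passed for villus over crypt and 21.1% for WT over labelled-DKO villus. Against 0.5 the share for WT over labelled-DKO villus was 9.91%. With the mean SE, 29.9% of all genes were called for labelled-DKO villus over crypt. No share of all genes is given for the other limits, so those counts have nothing to be read beside. Without genes under a mean signal of 100, Cldn4 was not tested. No paired analysis was possible because no replicate number is tied to any deposited value: the comparison tables hold group results and the count columns carry no names. Leaving out each replicate and the planned tests on counts could not be run either, and no call is checked against the loss of 1 library. Depth per library is not known.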

Other observations

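The windows of the count files differ in layout by strand. On the + strand all 19858 gene body windows with a promoter window began 49 bp after the end of that promoter window. On the - strand all 21190 gene body windows contained the whole promoter window and reached 250 bp past its upstream end. Of the genes described above, Cldn4, Cldn23 and Tjp1 are on the - strand. The 402 bp of the promoter window lie inside the gene body window of 2662 bp for Cldn4 and of 2701 bp for Cldn23. A ratio of promoter to gene body signal from these windows would not mean the same for Cldn4 or Cldn23 as for Cldn7 or Cldn15 on the + strand. Whether the deposited tables rest on these windows is not stated.

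Around Cldn3, which was not among the genes tested, 1 neighbour was tested on the side away from Cldn4. Wbscr25, on the - strand 418 bp from the promoter window of Cldn3, had -0.59 ± 0.14 (adjusted p 6.85e-05) in WT over labelled-DKO villus and 0.03 ± 0.14 (adjusted p 0.878) in villus over crypt in the authors' deposited tables. Its direction between genotypes was opposite to that of Cldn4, 38830 bp from Cldn3 on the other side, at 0.74 ± 0.22 in the authors' deposited table. Since Cldn3 had no gene body window, how far the gene reaches past its promoter window is not given. An overlap of Cldn3 itself with the windows of Wbscr25 was not tested.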
